A study of Mus musculus with 8 samples.

Results

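The subunits of respiratory complexes II to V that the nuclear genome encodes were measured in mouse liver and compared between a high-fat diet alone and the same diet with betaine. Members were all gene symbols of the form Sdha to Sdhd, Uqcr, Cyc1, Cox4 to Cox8, Atp5 and Atpif1, with pseudogene names set aside. The rule did not use any measured value. It found 51 genes, with 49 listed among the 24535 symbols of the RNA-seq values, 49 among the 25033 symbols of the Ribo-seq values and 47 in both. There were 4 members in complex II, 9 in complex III, 18 in complex IV and 20 in complex V. Atp5md and Atp5mpl were listed in RNA-seq under the older symbols Usmg5 and 2010107E04Rik. Atp5s and Atp5sl were listed in Ribo-seq as Dmac2l and Dmac2, and their products are not structural parts of the ATP synthase.

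All animals were C57BL/6 mice fed a diet with 45% of its energy from fat, and liver was taken at post-natal week 25. The HF group had this diet from week 8 of age with no betaine, and the HB group had the same diet with betaine at 2% (w/v) in the drinking water. RNA-seq reads polyadenylated mRNA, and Ribo-seq reads ribosome-protected fragments (RPFs), which are left where a ribosome covered the mRNA during RNase digestion. Each assay had 2 libraries per group. The labels describe RNA preparations pooled before sequencing, whereas the methods of the study speak of single mice picked for it, and the 2 sources also differ on how long the diet lasted. A p-value here therefore measures the spread between libraries and may not include the spread between animals. Library totals were 11661208 to 22543471 reads in RNA-seq and 141890 to 1056546 in Ribo-seq, with the smallest totals in the HB libraries of Ribo-seq (257086 and 141890). For a gene of 1 kb, 3 reads corresponded to 0.133 to 0.257 RPKM, which is reads scaled to gene length and library total, in RNA-seq and to 2.84 to 21.1 RPKM in Ribo-seq.

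Complex II, the succinate dehydrogenase, passes electrons from succinate to ubiquinone and is also an enzyme of the citric acid cycle. Complex III moves electrons from ubiquinol to cytochrome c, complex IV (cytochrome c oxidase) moves them to oxygen, and complex V, the ATP synthase, uses the proton gradient built up on the way to make ATP. Cytochrome b of complex III, the catalytic core of complex IV and some membrane subunits of complex V are encoded in mitochondrial DNA and were not analysed here. All 4 subunits of complex II are nuclear. In liver, electrons that fatty acid oxidation releases pass through complexes III and IV to oxygen.

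The 8 hepatocyte markers summed to 48020 and 49670 RPKM in the mRNA of HF and to 59900 and 56550 in that of HB, with albumin as the highest. Of the 6 markers of skeletal and cardiac muscle, Ckm, Myh1, Myh6 and Mb were listed at 0 in every mRNA library, and the highest value was 0.0846 RPKM. In RPFs the muscle list summed to 34.5 and 23.5 RPKM in HF and to 29.7 and 8.97 in HB, all of it from Acta1, with the other 5 at 0. The 3 erythroid markers summed to 251 and 210 RPKM in HF mRNA and to 395 and 1005 in HB mRNA, with Hbb-bs called higher (2.30% of all genes). The 2 brown adipocyte markers, Cidea and Ucp1, summed to 10.1 and 5.81 RPKM in HF mRNA and to 18.5 and 52.1 in HB mRNA. Cidea alone held 52.1 RPKM of the HB replicate 2 sum, and in RPFs Ucp1 was at 0 in every library. In RPFs the 4 stellate cell markers summed to 47.9 and 44.0 RPKM in HF and to 22.1 and 16.1 in HB, 2 of 4 endothelial markers (Pecam1 and Stab2) and 1 of 5 macrophage markers (Cd68) were called lower, as were 7.86% of all genes, and the erythroid sums were 479 and 304 in HF and 1133 and 156 in HB. The part of these cell types in the results was not tested. In bulk tissue, fewer cells of a type and less RNA per cell cannot be told apart.

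Respiratory subunit genes have many processed copies in the mouse genome. Of the 51 members, 28 shared at least 1 word of 30 coding bases with the annotated transcript of another gene, and 12 shared over 50% of them. Atp5l, Atp5g1, Atp5g2, Atp5md and Cox7c shared 100% of their words, Uqcrb shared 90.5%, Cox7a2l 80.3%, Atp5h 80.2%, Cox5b 74.9%, Cox6c 67.8%, Atp5f1 62.4% and Uqcr11 57.6%. Sdha, Sdhb, Sdhc, Sdhd, Cyc1, Uqcrc2, Atp5a1, Atp5g3 and Cox4i1 shared none. How reads from such copies were assigned is not given in the sources used here, so values of the 12 genes are less certain as values of that gene.

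In mRNA, 8 of the 43 members tested were higher in HB by the thresholds of the study (a log2 fold change over 1 in size and p below 0.001 before adjustment), and none was lower. Over all 10687 genes tested, 2.30% were called higher and 6.56% lower. The 8 were Sdha, Sdhd, Cox5a, Cox7a2l, Atp5a1, Atp5b, Atp5f1 and Atp5g3, and all of them also had a Benjamini-Hochberg adjusted p under 0.05 in limma, a criterion that 5.01% of all genes met with a fold change of that size upward. At an adjusted p under 0.05 with no minimum fold, 13 members were higher, adding Sdhc, Uqcrc1, Uqcrh, Cox7a2 and Atp5g2, and none was lower, against 7.92% of all genes higher and 19.1% lower. The median log2 fold change of the members was 0.44 beside -0.19 for all genes, and 30 members (69.8%) lay above 0 beside 39.8% of all genes. Both HB libraries lay above both HF libraries in 24.8% of all genes and below both in 43.3%. With no filter on low values the count of 8 became 1, which was Cox5a, and without HF replicate 1 it became 4.

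In RPFs, 4 of the 42 members tested were called higher (a log2 fold change over 1 in size and p below 0.05 before adjustment), namely Atp5k, Cox7a2l, Cox5b and Atp5l, and none was called lower. The background was 1.58% higher and 7.86% lower over 11190 genes. Of these genes, 9.07% had both HB libraries above both HF libraries and 33.2% had both below. For each of the 4 the limma adjusted p was 0.493, so none passed after adjustment. Over the alternatives, Atp5k and Cox7a2l had an adjusted p under 0.05 with voom on recovered reads and with a crossed replicate block, the lowest being 0.00309 and 0.000515, and in no other setting. The members' median log2 fold change was 0.23 beside -0.43 for all genes, and it was -0.64 beside -1.16 after rescaling every library to a common sum, where 1 member was called higher and 5 lower. It was -0.03 without HF replicate 1, -0.02 without HB replicate 1 and -0.02 with each length class set to a common median. A single entry made up 29.5% of the summed RPKM of HB replicate 2 and 24.1% of that of HB replicate 1, beside 14.6% and 10.9% in HF. Without HB replicate 1, 3 members were called higher and 6 lower.

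Translation efficiency (TE), the RPF value over the mRNA value, was tested for 40 members. Atp5k was called higher (a log2 fold change over 2 in size and p below 0.05 before adjustment), where the background was 1.49%, and Cox5a, Sdhd and Atp5a1 were called lower, where it was 4.60%. Their limma adjusted p lay between 0.328 and 0.364, so none passed after adjustment. The median was -0.45 for the members and -0.35 for all 9455 genes, and 37.5% of members lay above 0 beside 36.8% of all genes. The members' median was 0.04 without HB replicate 2 and -0.70 without HB replicate 1. The number called was 0 without HF replicate 2, 1 without HF replicate 1 and 9 without HB replicate 2.

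**Figure D1:**
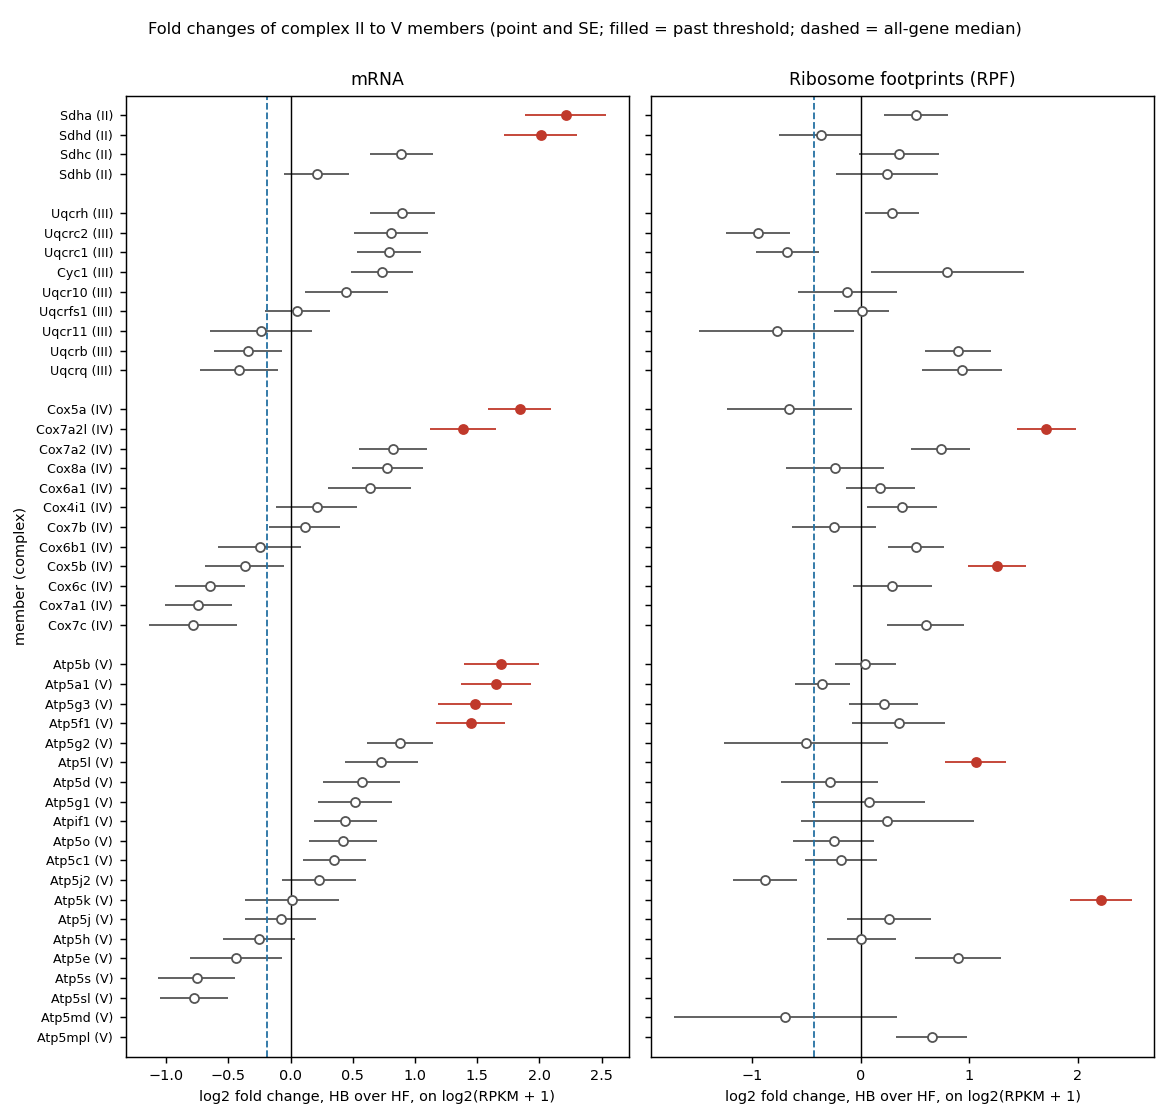
Log2 fold change of HB over HF with its standard error for every member tested, in mRNA (left) and RPFs (right), grouped by complex. Filled points passed the threshold of the assay, and dashed lines mark the median of all genes (-0.19 and -0.43). The 8 filled points in mRNA belong to complexes II, IV and V, and Cox7a2l is the member that is filled in both panels.

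Complex II showed the highest median of the 4 complexes in mRNA, 1.45 on the log2 scale. Sdha, the flavoprotein that oxidises succinate (chr13:74322254-74350280, minus strand), stood at 29.8 and 29.7 RPKM in HF and at 197 and 101 in HB. The groups did not overlap, and the log2 fold change was 2.21 (SE 0.33, limma adjusted p = 0.00525). Sdhd, a membrane anchor (chr9:50596357-50603812, minus strand), stood at 29.9 and 36.7 RPKM in HF and at 172 and 108 in HB, with a log2 fold change of 2.01 (SE 0.29, adjusted p = 0.00525). Sdhc, the other anchor, had 88.7 and 97.5 RPKM in HF against 172 and 174 in HB. Its log2 fold change of 0.89 (SE 0.25, limma adjusted p = 0.0286) was below the fold threshold. Sdhb, the iron-sulfur subunit, had 260 and 265 RPKM in HF against 284 and 324 in HB, a log2 difference of 0.21 (SE 0.26, adjusted p = 0.577).

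No member of complex II was called in RPFs. Sdha had 160 and 223 RPKM of RPFs in HF and 253 and 286 in HB, a log2 difference of 0.51 (SE 0.29, limma adjusted p = 0.608) that rested on 116 to 673 reads, with both HB libraries above both HF libraries. Sdhd had 102 and 141 RPKM in HF and 121 and 71.3 in HB, with overlapping groups. The last of these values rested on 13 reads, for which the exact Poisson interval at 95% confidence was 6.92 to 22.2 reads. Sdhb (122 and 213 against 267 and 137 RPKM) and Sdhc (96.2 and 75.5 against 142 and 83.7 RPKM) overlapped as well. The median log2 fold change of the complex in RPFs was 0.30 beside -0.43 for all genes.

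The TE of Sdhd was 3.42 and 3.84 in HF and 0.70 and 0.66 in HB. Its log2 fold change of -2.38 (SE 0.48, limma adjusted p = 0.328) passed the TE threshold as the only one in complex II, and the call was lost without HF replicate 2. Sdha had a TE of 5.36 and 7.51 in HF and 1.29 and 2.82 in HB, a log2 difference of -1.70 (SE 0.56, adjusted p = 0.364). Sdhb (0.468 and 0.805 against 0.938 and 0.423) and Sdhc (1.08 and 0.774 against 0.825 and 0.480) showed smaller differences.

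Set side by side, the 4 mRNAs of complex II differed widely in HF and less so in HB. The highest mRNA RPKM was 8.75 and 8.93 times the lowest in the HF libraries, and 1.66 and 3.20 times the lowest in the HB libraries. The footprint level was put on a coding scale by dividing the recovered reads by coding length and library total (written here as reads per coding kb, scaled to the library total). All recovered reads of a gene were used, and the study places part of its RPFs outside coding sequences, mostly in 3' untranslated regions. It gives a larger coding part for HB than for HF. Genes with long untranslated regions may thus read too high on this scale, and not equally in both groups. On that scale Sdha, Sdhb, Sdhc and Sdhd stood at 229, 155, 224 and 276 in HF replicate 1 and at 320, 272, 175 and 379 in HF replicate 2. The highest over the lowest was 1.77 and 2.16 in HF and 1.11 and 2.35 in HB. The assembled enzyme holds these subunits in equal number. In HF the footprint densities thus lay closer to each other than the mRNA levels did.

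**Figure D2:**
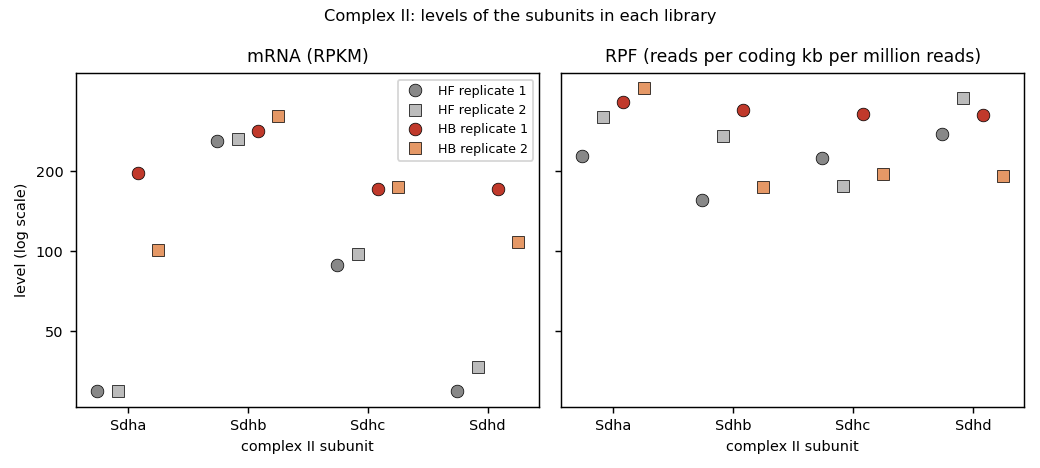
Levels of the 4 complex II subunits in each library on a log axis, as mRNA RPKM (left) and as scaled RPF reads per coding kb (right). Sdha and Sdhd mRNA lie at 29.7 to 36.7 RPKM in HF and at 101 to 197 in HB, while all footprint densities lie between 155 and 410.

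Among the mRNA-called members for which RefSeq (GRCm38.p6) gave a promoter, 3 held a searched motif in the 250 bases before the start site. The motifs are those of factors known to act on respiratory genes: NRF1 (GCGCANGCG), ETS factors such as GABP (CCGGAAG) and the estrogen-related receptors (TCAAGGTCA), each on both strands, with overlaps between motifs allowed. A promoter was matched for 39 of the 51 members and 7 of the 8 called ones. The NRF1 letters were in 9 of the 39 (23.1%) beside 5.16% of all 32851 promoters, the ETS letters in 9 (23.1%) beside 6.91%, and the receptor letters in 1 (2.56%) beside 0.387%. Among the 7 called ones, the NRF1 letters were in Sdha and Sdhd, the ETS letters in Sdhd and the receptor letters in Atp5g3. The pieces shown for the 3 genes are the stretch nearest to the start site that lies in no annotated exon, with the motif in capitals, for Sdha at chr13:74350281-74350308, for Sdhd at chr9:50603850-50603909 and for Atp5g3 at chr2:73911327-73911576, all on the minus strand.
Sdha: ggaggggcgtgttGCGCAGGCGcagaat
Sdhd: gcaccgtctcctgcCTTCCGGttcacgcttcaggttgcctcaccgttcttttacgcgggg
Atp5g3: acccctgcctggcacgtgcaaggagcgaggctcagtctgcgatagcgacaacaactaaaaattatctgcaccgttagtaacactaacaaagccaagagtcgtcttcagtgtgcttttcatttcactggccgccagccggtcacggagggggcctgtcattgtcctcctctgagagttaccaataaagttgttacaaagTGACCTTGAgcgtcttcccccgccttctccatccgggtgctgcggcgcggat
In Sdha the capitals mark 1 of 3 NRF1 matches, in Sdhd the ETS match on the other strand (its NRF1 match lies in an exon of the neighbour Timm8b), and in Atp5g3 the receptor match on the other strand. The Sdha and Sdhd pieces are short because annotated exons of Ccdc127 and of Sdha itself, and of Timm8b, lie in the same windows.

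In complex III no member was called in mRNA, RPFs or TE. Its median log2 fold change was 0.45 in mRNA, 0.01 in RPFs and -0.53 in TE. Uqcrh, the hinge protein beside cytochrome c1, had the largest mRNA difference, with 151 and 171 RPKM in HF and 283 and 317 in HB (log2 0.90, SE 0.26, limma adjusted p = 0.0319). Cyc1, cytochrome c1 itself (chr15:76343523-76346260), had 132 and 126 RPKM in HF and 218 and 211 in HB, without overlap (log2 0.74, SE 0.25, adjusted p = 0.0557). The large core proteins Uqcrc1 and Uqcrc2 were also above HF in both HB libraries, Uqcrc2 at 62.9 and 69.6 RPKM in HF against 149 and 90.8 in HB.

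Other subunits of complex III had lower fold changes in mRNA. Uqcrq had 690 and 671 RPKM in HF and 396 and 658 in HB, the lowest log2 fold change of the complex (-0.42, SE 0.32, limma adjusted p = 0.351). Uqcr11 stood at 859 and 808 RPKM in HF and at 445 and 1119 in HB, and Uqcr10 at 301 and 326 in HF and at 312 and 584 in HB. In these 2 genes the HB libraries lay apart from each other and the groups overlapped.

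In the footprints of complex III other genes stood at the ends of the range. Uqcrc2 had the lowest log2 fold change, with 65.7 and 76.4 RPKM in HF and 39.3 and 33.7 in HB (-0.94, SE 0.30, limma adjusted p = 0.493). Uqcrq had the highest, with 79.4 and 109 RPKM in HF and 230 and 139 in HB (0.93, SE 0.37, adjusted p = 0.504). Neither group pair overlapped, and neither gene passed the fold threshold. Over all genes in RPFs, 33.2% had HB below HF without overlap, like Uqcrc2, and 9.07% had HB above, like Uqcrq. Cyc1 showed 54.3, 53.6 and 46.4 RPKM in 3 libraries and 192 in HB replicate 1, so its difference of 0.80 (SE 0.70) came from a single library. Uqcrfs1, the Rieske iron-sulfur protein, was at 110 and 114 RPKM in HF and at 113 and 113 in HB.

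The TE of Uqcrc2 was 1.04 and 1.10 in HF and 0.263 and 0.371 in HB (log2 -1.75, SE 0.63, limma adjusted p = 0.378), short of the TE fold threshold. That of Uqcrq was 0.115 and 0.162 in HF and 0.580 and 0.211 in HB (log2 1.35, SE 0.92, adjusted p = 0.578). On the coding scale the partners Uqcrc1 and Uqcrc2, which pair in the core of the complex, had nearly the same footprint density. Their ratio was 1.00 and 0.97 in HF and 1.24 and 1.15 in HB.

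In complex IV, 2 of the 12 members tested were called higher in mRNA and 2 of 11 in RPFs. Cox5a (chr9:57521274-57532426, plus strand), a matrix-side subunit, stood at 55.4 and 57.7 RPKM in HF and at 222 and 189 in HB, with a log2 fold change of 1.84 (SE 0.25, limma adjusted p = 0.00523). It was the member of complexes II to V called under all 14 alternatives run for mRNA. Its footprints were not called. They stood at 153 and 186 RPKM in HF and at 185 and 61.1 in HB, with groups that overlapped (log2 -0.66, SE 0.57, adjusted p = 0.682), and the last value rested on 6 reads with an exact Poisson interval of 2.20 to 13.1. TE was 2.76 and 3.22 in HF and 0.834 and 0.324 in HB, a log2 fold change of -2.50 (SE 0.64, adjusted p = 0.334) that passed the TE threshold and lost the call without HB replicate 2 or either HF library.

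Cox5b, the zinc-binding partner of Cox5a on the matrix side (chr1:36691449-36693681), was called in RPFs and not in mRNA. Its mRNA was at 592 and 649 RPKM in HF and at 372 and 618 in HB (log2 -0.37, SE 0.32, limma adjusted p = 0.405). Its footprints were at 109 and 89.8 RPKM in HF and at 253 and 223 in HB, with no overlap. The log2 fold change in RPFs was 1.26 (SE 0.27, adjusted p = 0.493), on 24, 54, 37 and 18 reads. The call was lost after rescaling to a common sum (log2 0.39) and with each length class set to a common median. TE was 0.184 and 0.138 in HF against 0.680 and 0.361 in HB, a log2 difference of 1.63 below the TE threshold.

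Cox7a2l was called higher in both mRNA and RPFs. Its mRNA was at 24.0 and 33.0 RPKM in HF and at 79.8 and 70.9 in HB (log2 1.39, SE 0.26, limma adjusted p = 0.00801). Its footprints were at 129 and 128 RPKM in HF and at 479 and 372 in HB (log2 1.71, SE 0.27, adjusted p = 0.493). They rested on 54, 146, 133 and 57 reads, and the groups were apart in both assays. The mRNA call was lost without HF replicate 1 (log2 1.16) and with no filter, and the RPF call was lost after rescaling to a common sum (log2 0.84). TE was alike across groups, 5.37 and 3.87 in HF and 6.00 and 5.24 in HB (log2 0.32, SE 0.46, adjusted p = 0.797). The gene (chr17:83501918-83517330, minus strand) shared 80.3% of its coding words with copies.

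Several subunits of cytochrome c oxidase exist as paralogues, with forms known for liver and other tissues and forms known for heart and skeletal muscle, testis or lung. The forms read in these libraries were the broadly expressed ones. Cox4i1 had mRNA values of 835 and 1028 RPKM in HF and 849 and 1353 in HB, whereas Cox4i2, known from lung, was at 1.06 and 0 in HF and at 0.122 and 0.152 in HB. Cox6a1 had 732 and 773 RPKM in HF and 888 and 1541 in HB, and the muscle form Cox6a2 had at most 0.257. Cox6b1 had 679, 617, 404 and 733 RPKM in HF1, HF2, HB1 and HB2, and Cox6b2, known from testis, had at most 1.05. Cox8a had 369 and 446 RPKM in HF and 614 and 787 in HB, Cox8b had at most 0.305, and Cox7b2 and Cox8c were listed at 0 in all libraries.

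The muscle form Cox7a1 was the exception among the minor forms in mRNA, with 8.90 and 10.6 RPKM in HF and 4.48 and 6.50 in HB (37 to 46 reads a library). The groups did not overlap, with HB lower as in 43.3% of all genes, and the log2 difference of -0.74 (SE 0.27, limma adjusted p = 0.0654) did not pass. It was listed at 0 in all 4 Ribo-seq libraries, as were Cox4i2, Cox6a2, Cox6b2, Cox7b2, Cox8b and Cox8c. Cox7a2, the common form, stood at 98.9 and 137 RPKM in HF mRNA and at 204 and 208 in HB mRNA (log2 0.82, SE 0.27, adjusted p = 0.0495), and at 113 and 138 against 222 and 196 RPKM in RPFs (log2 0.74, SE 0.27, adjusted p = 0.493).

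Among the footprints of the broadly expressed paralogues, Cox6b1 had 265 and 287 RPKM in HF and 368 and 419 in HB (log2 0.51, SE 0.25, limma adjusted p = 0.566). Cox4i1 (177 and 267 against 314 and 256), Cox6a1 (373 and 327 against 487 and 323), Cox7b (33.5 and 57.7 against 38.9 and 35.2) and Cox8a (175 and 144 against 200 and 90.5) had overlapping groups. Of the members of the complex tested in RPFs, Cox7b had the lowest mean RPKM, while its mRNA stood at 176, 229, 187 and 253 RPKM.

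Cox7c and Cox6c are short membrane subunits of complex IV. Cox7c mRNA stood at 1121 and 1180 RPKM in HF and at 474 and 937 in HB, the lowest log2 fold change of the complex (-0.79, SE 0.36, limma adjusted p = 0.127). Its footprints stood at 287 and 466 RPKM in HF and at 632 and 487 in HB (log2 0.60, SE 0.35, adjusted p = 0.616). Cox6c mRNA was at 989 and 1097 RPKM in HF and at 620 and 713 in HB, and its footprints at 266, 369, 302 and 490 RPKM overlapped.

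In complex V, 4 of 18 members tested were called higher in mRNA. Without HF replicate 1 the calls of Atp5a1, Atp5f1 and Atp5g3 were lost. Atp5a1 and Atp5b, the alpha and beta subunits of the catalytic F1 head, rose together. Atp5a1 (chr18:77773729-77782869) was at 118 and 139 RPKM in HF and at 482 and 339 in HB (log2 1.65, SE 0.28, limma adjusted p = 0.00633). Atp5b (chr10:128083273-128090391) was at 153 and 180 RPKM in HF and at 674 and 430 in HB (log2 1.69, SE 0.30, adjusted p = 0.00666). Both genes had HB libraries above both HF libraries by more than the spread within either group. Atp5f1, the b subunit of the peripheral stalk (chr3:105942698-105960099), was at 47.1 and 60.7 RPKM in HF and at 172 and 126 in HB (log2 1.45, SE 0.28, adjusted p = 0.00818).

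None of these 3 genes was called in RPFs. Atp5a1 had 411 and 477 RPKM in HF and 349 and 345 in HB (log2 -0.35, SE 0.26, limma adjusted p = 0.653). Its HB libraries were both below its HF libraries, as in 33.2% of all genes. Atp5b had 427 and 550 RPKM in HF and 468 and 533 in HB (log2 0.04, SE 0.28, adjusted p = 0.961), and Atp5f1 had 82.7 and 151 in HF and 114 and 179 in HB. Atp5a1 and Atp5b had the most footprint reads of all members, 119 to 1224 and 142 to 1092 a library, so their values carry the least counting error. TE of Atp5a1 was 3.47 and 3.44 in HF and 0.724 and 1.02 in HB (log2 -2.0, SE 0.49, adjusted p = 0.334). This lay at the edge of the TE fold threshold, and the call was lost with a common median and without HF replicate 1, HF replicate 2 or HB replicate 1. TE of Atp5b was 2.80 and 3.06 in HF and 0.694 and 1.24 in HB (log2 -1.65, SE 0.53, adjusted p = 0.364), under the TE fold threshold.

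The c ring, the rotor in the membrane, is made of identical mature proteins from Atp5g1, Atp5g2 and Atp5g3. Atp5g3 mRNA (chr2:73908447-73911326, minus strand) was at 186 and 287 RPKM in HF and at 626 and 671 in HB (log2 1.48, SE 0.30, limma adjusted p = 0.00928). Atp5g2 was at 143 and 163 RPKM in HF and at 255 and 310 in HB (log2 0.88, SE 0.27, adjusted p = 0.0366), and Atp5g1 at 237 and 303 in HF and at 318 and 464 in HB (log2 0.52, SE 0.30, adjusted p = 0.221). Atp5g3 thus made up 32.9% and 38.1% of the summed mRNA RPKM of the 3 genes in HF and 52.2% and 46.5% in HB. Of the summed footprint density its share was 75.1% and 79.4% in HF and 72.9% and 87.5% in HB. Atp5g1 and Atp5g2 shared all coding words with copies, and Atp5g3 shared none.

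The membrane-side accessory subunits held 2 of the RPF calls. Atp5k, the e subunit at the dimer interface (chr5:108433244-108434448, minus strand), had footprints of 93.3 and 124 RPKM in HF and 528 and 478 in HB. The log2 fold change was 2.21 (SE 0.28, limma adjusted p = 0.493), and it kept the call under 14 alternatives, with values from 1.34 to 2.54, though in the fit reported here neither Atp5k nor any other member reached an adjusted p under 0.05 in RPFs. It rested on 8, 29, 30 and 15 reads, with exact Poisson intervals of 3.45 to 15.8 and 19.4 to 41.7 for the HF libraries. These are the smallest whole numbers that fit the deposited steps, and the reads could be a multiple of them. Atp5k mRNA did not differ in the same way, with 364 and 364 RPKM in HF and 242 and 556 in HB (log2 0.01, SE 0.38). TE was 0.256 and 0.341 in HF and 2.18 and 0.860 in HB (log2 2.20, SE 0.72, adjusted p = 0.364), and this call was lost under 6 of 16 alternatives.

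Atp5l, the g subunit, had footprints of 141 and 148 RPKM in HF and 349 and 261 in HB (log2 1.06, SE 0.28, limma adjusted p = 0.493). The call was lost under 6 of the same 14 alternatives, where the log2 fold change fell as low as 0.19. Atp5l mRNA was at 213 and 302 RPKM in HF and at 382 and 465 in HB (log2 0.73, SE 0.29, adjusted p = 0.0892). Atp5j2, the f subunit, had the lowest log2 fold change of complex V in RPFs, with 173 and 131 RPKM in HF and 89.7 and 73.9 in HB (-0.88, SE 0.30, adjusted p = 0.493), short of the fold threshold. Its mRNA was at 443, 533, 472 and 685 RPKM.

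Atp5e, the epsilon subunit of the head, had the highest mean mRNA RPKM of complex V over the 4 libraries, though not the highest in HB replicate 1, with 1012 and 1127 RPKM in HF and 548 and 1131 in HB. Its footprints were at 93.4 and 146 RPKM in HF and at 282 and 170 in HB (log2 0.90, SE 0.40, limma adjusted p = 0.532). Atp5h, the d subunit of the stalk, had 565 and 614 RPKM of mRNA in HF and 420 and 580 in HB, and 135, 181, 183 and 135 RPKM of footprints. Atpif1, which inhibits the synthase when it runs backwards, was low in both assays. It stood at 6.73 and 8.74 RPKM in HF mRNA and at 11.5 and 10.1 in HB mRNA (log2 0.44, SE 0.26, adjusted p = 0.223), and its 1, 13, 2 and 1 footprint reads allow no comparison.

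The symbols Atp5s and Atp5sl stood lower in HB mRNA without passing the threshold. Atp5sl was at 39.1 and 36.4 RPKM in HF and at 17.6 and 26.5 in HB (log2 -0.78, SE 0.27, limma adjusted p = 0.0603), and Atp5s at 2.71 and 5.35 in HF and at 2.33 and 1.49 in HB. As Dmac2, Atp5sl had 17.6 and 11.6 RPKM of footprints in HF and 7.97 and 4.81 in HB, on 1 to 18 reads. As Dmac2l, Atp5s had 0 and 3.14 RPKM of footprints in HF and 7.73 and 18.7 in HB, on 0 to 5 reads. Its log2 fold change of 2.69 (SE 0.95, limma adjusted p = 0.493) was past the RPF threshold, but the rule does not take this symbol and the gene is not in the count of 4.

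On the coding scale the footprints of the F1 head could be set against each other. Several copies of alpha and beta surround a single gamma, delta and epsilon in each ATP synthase. Atp5a1 stood at 603, 698, 511 and 506 in HF1, HF2, HB1 and HB2, Atp5b at 505, 651, 554 and 631, and the gamma subunit Atp5c1 at 167, 254, 161 and 205 scaled reads per coding kb. The density of Atp5a1 was therefore 3.61, 2.75, 3.18 and 2.47 times that of Atp5c1, and that of Atp5b 3.02, 2.56, 3.44 and 3.08 times. In mRNA RPKM, Atp5a1 was 1.08 and 1.21 times Atp5c1 in HF and 3.22 and 2.46 times in HB. The delta subunit Atp5d stood at 189, 218, 247 and 112, on both sides of gamma and with 8 reads behind the last value, and the very short Atp5e at 248, 388, 748 and 452, above gamma in each library. The 3 c ring genes summed to 885 and 1201 in HF and to 1400 and 952 in HB. Across the 42 members the density fell with coding length (Pearson r on log2 values of -0.20, -0.23, -0.40 and -0.21 in the 4 libraries, members sharing each library's depth), and this trend was not removed. Within complex V the same r was 0.21, 0.25, -0.12 and 0.16. Atp5c1 and Atp5d, like Uqcrc1 and Uqcrfs1, fell outside the rule for named genes and were chosen after their values were seen.

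**Figure D3:**
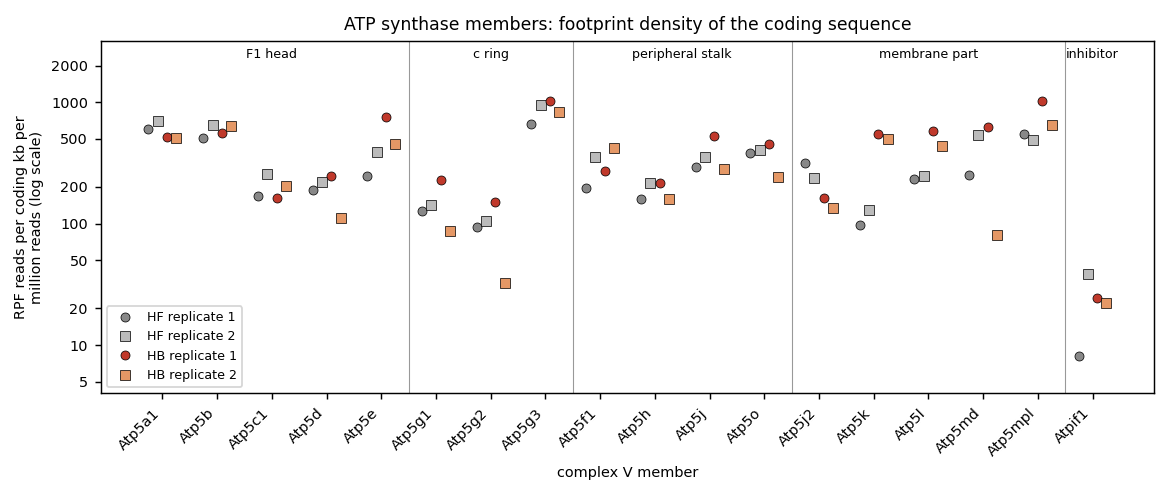
Scaled RPF reads per coding kb for each complex V member listed in Ribo-seq, on a log axis, in the 4 libraries and grouped by place in the enzyme. Atp5a1 and Atp5b lie between 505 and 698 in all libraries, Atp5c1 between 161 and 254, and Atpif1 between 8.11 and 38.7.

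The 8 members called higher in mRNA, chosen by a fold change over HF mRNA, were set against the other members in TE. In the HF libraries TE of the 8 ran from 1.76 to 5.37 (median 3.11) and from 2.09 to 7.51 (median 3.33). The other 32 members tested had TE from 0.0923 to 1.88 (median 0.371) and from 0.13 to 1.70 (median 0.409). In HB the medians were 0.779 and 1.13 for the 8 and 0.547 and 0.334 for the other 32. The HF mRNA values enter both the fold change and TE, so a low HF mRNA value raises both, and no test was made of this relation. Levels of TE between genes also carry a length factor, since 13 of 40 members had another gene length in Ribo-seq than in RNA-seq.

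**Figure D4:**
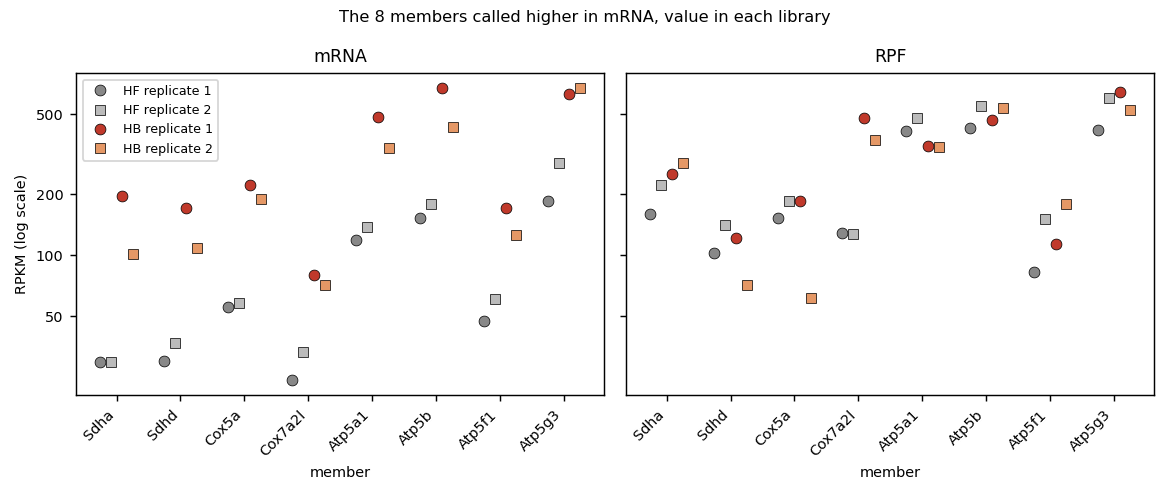
RPKM on a log axis of the 8 members called higher in mRNA, in each RNA-seq library (left) and each Ribo-seq library (right). In mRNA both HB points lie above both HF points for all 8, which were chosen by that difference (24.8% of all genes). In RPFs this holds for Sdha and Cox7a2l (9.07% of all genes).

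Totals were also formed for each complex. The summed mRNA RPKM of complex II was 409 and 429 in HF and 825 and 708 in HB, 1.83 times higher on average and without overlap. Complex V summed to 4585 and 5206 in HF and to 5743 and 7334 in HB, 1.34 times higher, also without overlap. Complex III (2893 and 2902 against 2490 and 3738) and complex IV (5682 and 6257 against 4917 and 7410) overlapped. In RPFs the sum of complex IV was 2079 and 2459 in HF and 3481 and 2953 in HB, 1.42 times higher and without overlap, while complexes II (1.20 times), III (1.15 times) and V (1.20 times) overlapped. As a share of all RPF RPKM of a library, complex IV was 0.191% and 0.196% in HF and 0.200% and 0.112% in HB, so the groups overlapped after scaling to a common sum. On that scale complex V was lower in HB in RPFs (0.290% and 0.315% in HF, 0.280% and 0.138% in HB), and in mRNA complexes II (0.0648% and 0.0661% against 0.133% and 0.101%) and V (0.727% and 0.802% against 0.927% and 1.05%) were still higher in HB without overlap. With 2 libraries a group, the exact permutation test of a sum cannot go below p = 0.333, so none was made. Of the members' summed mRNA, complex II made up 3.01% and 2.90% in HF and 5.90% and 3.69% in HB.

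By median log2 fold change, complex II led in mRNA (1.45), followed by complex III (0.45), V (0.43) and IV (0.16). In RPFs the order was IV (0.38), II (0.30), V (0.06) and III (0.01), all above the median of all genes (-0.43). In TE complex IV had a median of 0.17, complexes III and V had -0.53 and -0.60, and complex II had -1.12. Calls in mRNA were 2 of 4 in complex II, 0 of 9 in III, 2 of 12 in IV and 4 of 18 in V. The differences between complexes were not tested, since members of a complex are not replicates.

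Across the 40 members tested in both assays, the standard deviation of log2(RPKM + 1) over members was 1.66 and 1.61 in HF mRNA and 1.06 and 1.38 in HB mRNA. Over all 43 members tested in mRNA it was 1.96 and 1.89 in HF and 1.74 and 1.97 in HB, so that the groups overlapped. In footprints it was 1.26 and 1.10 in HF and 1.27 and 1.45 in HB, where the HB libraries also had the fewest reads. Pearson's correlation of mRNA with footprints across these members, given as a description, was 0.47 and 0.43 in HF and 0.69 and 0.47 in HB, and Spearman's was 0.30 and 0.27 in HF and 0.55 and 0.33 in HB. The points of a library share its depth, and genes are not independent replicates. The median TE of the members was 0.457, 0.452, 0.671 and 0.435 in HF1, HF2, HB1 and HB2, beside 1.07, 1.02, 0.877 and 0.739 over all 9455 genes.

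The mRNA differences of the members were also set against gene length. The 18 members longer than 1000 nt had a median log2 fold change of 0.76 and held 6 of the 8 calls, and the 25 shorter ones had 0.23. Over all genes the medians were -0.21 for 9703 longer and 0.09 for 984 shorter genes. By class the medians of all genes were -0.34, 0.10 and 0.21 up to 500, 750 and 1000 nt, and fell from 0.11 to -0.44 beyond that. The 7 members of up to 500 nt had a median of -0.24, and the class held 133 genes. Within HB, these 7 differed between libraries by a median of -0.98 (HB1 minus HB2, log2), beside -0.56 for all genes of that length, while within HF the median was -0.12. For Uqcr11, Atp5e and Atp5k the HB value below both HF values was that of HB replicate 1. Cox7c was below HF in both HB libraries, with a log2 difference of -0.30 without HB replicate 1. After setting each length class to a common median, 7 of the 8 mRNA calls stood, all but Atp5g3. All 8 stood without HB replicate 1.

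**Figure D5:**
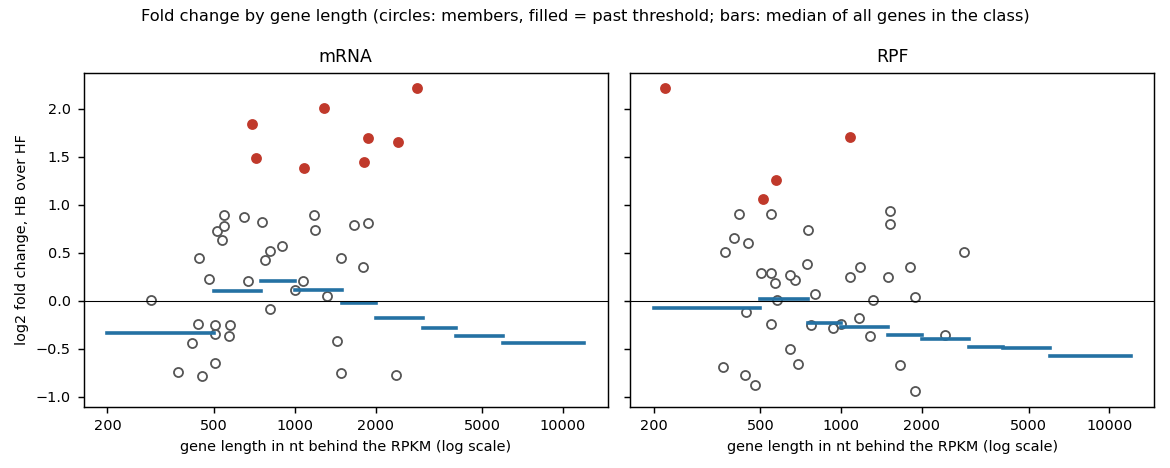
Log2 fold change of HB over HF against the gene length behind the RPKM (log axis) in mRNA and RPFs. Circles are members, filled where called, and bars are medians of all genes in a length class. In mRNA 6 of the 8 filled circles lie beyond 1000 nt, where the bars fall from 0.11 to -0.44.

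Genes that work beside the complexes were taken from fixed lists. Of 37 assembly factors tested in mRNA (background 2.30% higher), Sdhaf3, a complex II assembly factor, was called higher (2.81 and 2.77 RPKM in HF, 8.87 and 7.04 in HB, log2 1.23, limma adjusted p = 0.00931), and none was lower. In RPFs 1 of 38 was called higher (Coa3, background 1.58%) and 4 lower (Coa6, Sco2, Surf1 and Taco1, background 7.86%), with a list median of -0.56 beside -0.43 for all genes. Surf1 had 24.1 and 28.1 RPKM of footprints in HF and 3.30 and 5.98 in HB. These calls had an adjusted p of 0.493, like those of the subunits. In TE 3 of 37 were called lower (Coa6, Surf1 and Taco1, background 4.60%), with an adjusted p of 0.334 each.

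Of 13 carriers tested in mRNA, where 2.30% of all genes were called higher, Slc25a5, an ADP/ATP translocase that feeds the synthase, was called higher (142 and 154 RPKM in HF, 424 and 311 in HB, log2 1.29, limma adjusted p = 0.011), and its footprints stood at 181, 165, 210 and 158 RPKM. Cycs, cytochrome c, was at 56.1, 47.9, 74.2 and 62.6 RPKM. None of 12 carriers was called in RPFs or TE. Of 7 core subunits of complex I, none was called in mRNA or TE and Ndufs1 was called lower in RPFs (background 7.86%, adjusted p = 0.493). Of 15 matrix enzymes, Mdh2 and Suclg1 were called higher in mRNA (background 2.30%). Pdha1 was called lower in RPFs (background 7.86%, limma adjusted p = 0.493), and Pdha1 and Suclg1 were called lower in TE (background 4.60%, adjusted p of 0.334 and 0.328), so none of these passed after adjustment. Suclg1, which makes the succinate that complex II uses, was at 23.2 and 43.4 RPKM in HF and at 201 and 161 in HB (log2 2.46, adjusted p = 0.00523). In mRNA 14 of the 15 matrix enzymes lay above 0 beside 39.8% of all genes, with a median of 0.49 beside -0.19. The carriers (0.42), complex I core subunits (0.23) and assembly factors (0.18) also had mRNA medians above that of all genes. In RPFs 14 of the 15 matrix enzymes lay below 0 and 29.6% of all genes above it, with medians of -0.42 and -0.43. In TE all 15 lay below 0, with a median of -0.91 beside -0.35 for all genes, of which 36.8% lay above 0.

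The 11 regulators of respiratory genes had a median mRNA log2 fold change of -0.40 beside -0.19 for all genes, with 1 of 11 above 0 beside 39.8% of all genes. Gabpb1, the beta subunit of GABP, was the 1 gene called lower, where the background was 6.56% (6.05 and 7.18 RPKM in HF, 2.41 and 1.86 in HB, log2 -1.28, limma adjusted p = 0.00853). Esrra, an estrogen-related receptor, was at 65.4 and 62.7 RPKM in HF and at 25.8 and 32.5 in HB (log2 -1.12, adjusted p = 0.0131), just short of the p threshold. Nrf1 was at 3.73 and 4.67 RPKM in HF and at 2.10 and 2.11 in HB, and Ppargc1a at 3.01, 2.00, 1.89 and 1.40. None of the 11 was called in RPFs or TE.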

How the data were processed

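Liver RNA-seq and Ribo-seq libraries of the HF and HB groups were analysed from the values that the authors deposited. Reads were mapped by the authors to mm10 with FANSe2, and each library has its own column of RPKM values. Which part of a transcript RPFs were counted over is not given in the sources used here. The submitters' processing notes also name edgeR. 4 RNA-seq entries that share symbols were left out, and no column was left unused.

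Library totals, gene lengths and whole reads were recovered from the RPKM steps of 1 read (smallest whole numbers that fit within 0.02 reads in RNA-seq and 0.0002 in Ribo-seq, at least 98.45% of values whole in each library). For each assay, genes whose 4 libraries averaged 1 RPKM or more were fitted on log2(RPKM + 1), the pseudocount being 1, in limma 3.58.1 (R 4.3.3, eBayes with a variance trend, group as the only factor, two-sided, Benjamini-Hochberg over all genes). Fold changes are on that scale and understate low genes. The filter does not enter the fold change of a gene, so with no filter only its p-value moved. TE was log2((RPF RPKM + 1)/(mRNA RPKM + 1)) of libraries with the same group and number, and printed TE values are plain RPKM ratios. Calls used the thresholds that the study applied. Coordinates and coding lengths are from GENCODE M21 (GRCm38, the mm10 assembly). Poisson intervals cover counting error only. Only the mRNA and RPF calls of the main fit were tested on simulated reads. The recovery of reads, TE and the alternatives were not tested in that way.

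The members and gene lists were chosen with earlier results of these data known. Named are all of complex II, Cyc1, Atpif1, every called member, the 3 most abundant by RPFs and by mRNA and the extremes of fold change in complexes III to V, the paralogue families and members below the filter. Settings varied one at a time were the pseudocount (0.1), the filter (none, or an average of 5 RPKM), common sum, common median (also within length classes), no trend, adjusted p under 0.05, blocks by replicate number, each library left out, voom on recovered reads and, for TE, crossed numbers and an interaction model.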

Additional observations from a re-analysis of the deposited data

How the results depend on the processing

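The count of members higher in mRNA was 8 under every alternative other than no filter (1), each length class set to a common median (7) and leaving out a library (4 to 9), and lower calls ranged from 0 to 1 when a library was left out. In RPFs the count higher was 1 with a common sum, 8 with a common median, 0 at an adjusted p under 0.05 and 3 to 7 when a library was left out. The count lower was 5 with a common sum, 1 with each length class set to a common median and 0 to 6 when a library was left out. In TE 8 were called with a common sum, 0 at an adjusted p under 0.05, and 0 to 9 when a library was left out.

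The members' median log2 fold change in mRNA was 0.23 with no filter, 0.71 with a common median and 0.24 to 0.58 when a library was left out. In RPFs it was -0.64 with a common sum, 0.55 with a common median, 0.04 with no filter, -0.02 with each length class set to a common median and -0.03 to 0.42 when a library was left out. In TE it was -0.08 with no filter, -1.27 with a common sum and -0.70 to 0.04 when a library was left out. With 1 library left in a group, it was assumed to vary like the other group. The cause of these changes was not tested. The common median within length classes, the crossed block and the share of complexes in a library's RPKM sum were chosen after seeing the data.

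With the replicate number as a block, 8, 4 and 4 members were called in mRNA, RPFs and TE, as without it, and crossing the numbers gave the same counts. HF and HB libraries of the same number did not deviate together (correlation across genes of -0.10 in mRNA and -0.01 in RPFs), so the numbers were not taken as pairs. The depth of the HB Ribo-seq libraries, with a median of 38 and 15 reads a member, limits all statements on RPFs and TE.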
